A study of Mus musculus with 8 samples.

Results

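Non-muscle myosin II and its regulators were examined as 10 genes of the deposited listing of 12528 genes, taken by name: Myh9, Myh10, Myl6, Myl9, Myl12a, Myl12b, Mylk, Ppp1r12a, Rock1 and Rock2. The RNA came from mouse embryonic fibroblasts (MEFs), immortalized, of WT and Cav1KO littermates, the latter lacking caveolin-1, a membrane protein of caveolae. Cells of each genotype were kept for 24 h on fibronectin-coated polyacrylamide hydrogels, either stiff (55 kPa) or soft (0.2 kPa), to ask whether caveolin-1 takes part in the response to substrate stiffness. Each genotype and substrate formed a group (WT stiff and WT soft, and likewise Cav1KO stiff and Cav1KO soft), with 2 libraries each, numbered 1 and 2. The number of embryos or lines per genotype, and whether the 2 libraries of a group came from separate cultures, were not given in the sources used here, so p-values measure the spread between these libraries, which may be technical. A difference between the genotypes cannot be told apart from one between the immortalized populations.

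Non-muscle myosin II is the motor that pulls on actin filaments in cells outside muscle. It is a hexamer of a pair of heavy chains, which hold the motor head and the tail that assembles into bipolar filaments, with an essential and a regulatory light chain on each neck. Phosphorylation of the regulatory light chain by myosin light chain kinase or by the kinases ROCK1 and ROCK2 favours filament assembly and motor activity, and myosin phosphatase, which PPP1R12A directs to myosin, reverses it. ROCK also phosphorylates PPP1R12A and so restrains the phosphatase. In fibroblasts this machinery tensions stress fibres and focal adhesions and is the means by which the cells sense how stiff their substrate is.

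The regulatory light chain has 3 genes in the set, Myl9, Myl12a and Myl12b. The site where the kinases act is shown because these genes differed in how much their levels changed between the genotypes. Each coding sequence has 519 bases, stop codon included, and the lines below give the 45 bases from position 34 to 78 of each, counted from the start codon and read from the GENCODE M21 transcripts. Capitals mark the codons of threonine 18 and serine 19, numbered without the initiator methionine, the residues that the kinases phosphorylate.
Myl9: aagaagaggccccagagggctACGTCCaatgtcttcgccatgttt
Myl12a: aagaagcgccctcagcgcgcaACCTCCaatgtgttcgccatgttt
Myl12b: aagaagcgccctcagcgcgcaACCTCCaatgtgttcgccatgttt
Over these 45 bases Myl12a and Myl12b were identical, and Myl9 differed from both at 8 bases. Over the whole coding sequence, Myl12a and Myl12b shared 96.5% of bases, Myl9 and Myl12a 85.5%, and Myl9 and Myl12b 86.3%.

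The libraries held 17089836 to 19944952 reads on the listed genes. Values are TMM-normalized CPM, reads of a gene relative to the effective size of its library, so that 1 read was worth between 0.0502 and 0.0604 CPM. Cav1 reached 949.8 CPM or more in every WT library, and no Cav1KO library exceeded 0.411 CPM, 1 to 8 reads. Fibroblast markers were abundant, with summed levels of 7102 to 8690.2 CPM in WT and 3473 to 9445 CPM in Cav1KO libraries for the 5 of 6 with a row (Col1a1, Col1a2, Col3a1, Pdgfrb and Vim). Skeletal muscle (0 of 6), epithelial (0 of 4) and endothelial (0 of 3) markers had no row, and of 4 macrophage markers Cd68 alone had one, at 0.552 to 4.55 CPM. Libraries of a group differed from each other with transcript length. The log2 difference between replicates 1 and 2 correlated with log2 length across 12417 genes at Pearson's r = 0.393 for WT stiff, -0.192 for WT soft, 0.425 for Cav1KO stiff and 0.119 for Cav1KO soft, and genes are not independent replicates. Of the 10 genes, 5 (Myh9, Myh10, Mylk, Rock1 and Rock2) have transcripts in the longest 10%. For several results, values are also given without WT soft replicate 1 and Cav1KO stiff replicate 2. These were chosen after seeing the data, since Myh9, Myh10, Rock1 and Rock2 were lower in each than in the other library of its group. The same held for WT stiff replicate 2, which was kept. The stiffness effect of Myh9 in WT cells was 1.13 with all libraries and 0.62 without WT soft replicate 1. Without WT stiff replicate 2 it was 1.42. The choice was thus one-sided and made on genes it was used to judge.

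Tests were made with limma on log2(CPM + 1) over the 12494 genes that reached 1 CPM in 2 or more libraries, as all 10 did, with a threshold of 0.05 on the Benjamini-Hochberg adjusted p. SE is the standard error of a log2 fold change in this fit. More of the 10 genes were called for genotype on either substrate than for stiffness in WT cells, and the latter count changed with the processing. Between Cav1KO and WT cells on the stiff substrate, Mylk was higher (1 of 10, against 25% of all genes tested) and Myh9, Myl6, Myl9, Myl12b, Rock1 and Rock2 were lower (6 of 10, against 26.6%). On the soft substrate, Myh9, Myh10, Mylk and Ppp1r12a were higher in Cav1KO cells (4 of 10, against 24.1%) and Myl6, Myl9, Myl12a and Myl12b were lower (4 of 10, against 29.9%). Between stiff and soft substrate in WT cells, Myh9 was higher (1 of 10, against 22.1%) and Myl12b was lower (1 of 10, against 26.3%). In Cav1KO cells, Myl12a was higher on the stiff substrate (1 of 10, against 27.9%) and Myh9, Myl12b, Mylk, Ppp1r12a and Rock1 were lower (5 of 10, against 28.2%). The stiffness effect differed between the genotypes for Myh9, Myl12b, Mylk and Rock1, each more positive in WT cells (4 of 10, against 4.47% of all genes), and was called more positive in Cav1KO cells for none of the 10 (against 6%). The median log2 fold change of the 10 genes for the stiffness effect was 0.10 in WT and -0.90 in Cav1KO cells, beside -0.02 in both for all genes tested. The median genotype effect was -0.57 on the stiff and 0.48 on the soft substrate, beside -0.03 in both for all genes. Among all genes in the longest 10% of transcripts, the median stiffness effect was 0.10 in WT and -0.39 in Cav1KO cells. Their median genotype effect was -0.24 on the stiff and 0.27 on the soft substrate. These took the signs of the medians of the 10 genes, and the part of transcript length in the latter was not tested. The plot of levels shows the 80 values behind these counts.

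**Figure D1:**
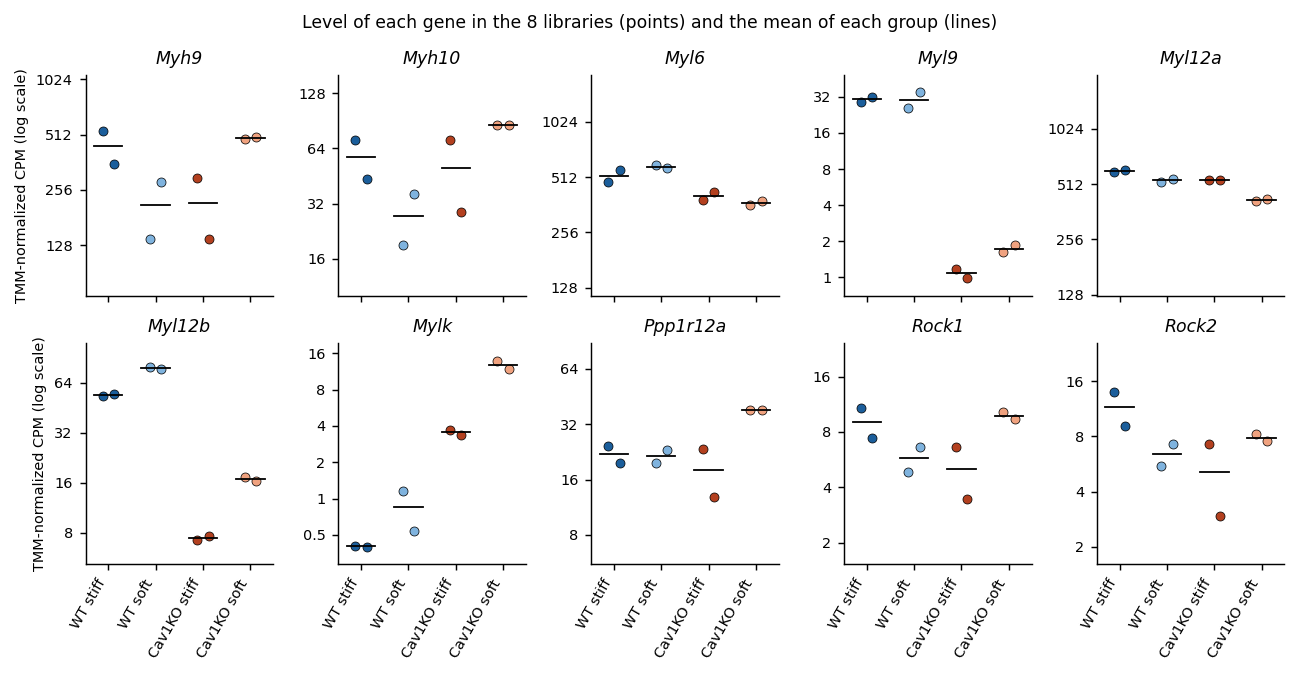
Each panel plots 1 gene, with the TMM-normalized CPM of the 8 libraries (points, 2 per group) on a log axis with base 2 and the group mean as a line. Myl9 and Myl12b sit lower in every Cav1KO library than in every WT library and Mylk sits higher, while the libraries of Myh9, Myh10, Rock1 and Rock2 lie far apart within WT stiff, WT soft and Cav1KO stiff.

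The heavy chains were Myh9 and Myh10, which encode the heavy chains of non-muscle myosin IIA and IIB. Myh9 (ENSMUSG00000022443, chromosome 15 from 77760587 to 77842175 of GRCm38) was at 534 and 355 CPM in WT cells on the stiff substrate and at 139 and 284 CPM on the soft. Without caveolin-1 it was at 297 and 138 CPM on the stiff and at 483 and 494 CPM on the soft substrate. The stiff libraries were thus above the soft ones in WT cells and below them in Cav1KO cells, without overlap. In WT cells the stiff mean was 2.10 times the soft mean (log2 fold change 1.13 with SE 0.40, limma adjusted p = 0.0433), and in Cav1KO cells the soft mean was 2.25 times the stiff mean (-1.27 with SE 0.40, limma adjusted p = 0.0241). The difference between these effects was 2.39 on the log2 scale (SE 0.56, limma adjusted p = 0.0381). Compared with WT cells, Cav1KO cells had less Myh9 on the stiff substrate (-1.10, limma adjusted p = 0.0450) and more on the soft (1.30, limma adjusted p = 0.0225). In the order of group means, Cav1KO soft and WT stiff overlapped, as did Cav1KO stiff and WT soft.

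How firmly the Myh9 calls stood depended on single libraries and on the method of the test. Its level differed between replicates 1 and 2 by 0.59 in WT stiff, by -1.02 in WT soft and by 1.10 in Cav1KO stiff on the log2 scale, and by -0.03 in Cav1KO soft. The call in WT cells was lost without WT stiff replicate 1 or 2, WT soft replicate 1 or either Cav1KO soft library, with log2 fold changes of 0.62 to 1.42 and limma adjusted p of 0.0505 to 0.301. The call in Cav1KO cells was lost without Cav1KO stiff replicate 2 or either Cav1KO soft library (-1.28 to -0.72, limma adjusted p of 0.0849 to 0.141). The genotype call on the stiff substrate was lost without WT stiff replicate 1, Cav1KO stiff replicate 2 or either Cav1KO soft library (-1.10 to -0.55, limma adjusted p of 0.0669 to 0.258), and the one on the soft without WT soft replicate 1 or either Cav1KO soft library (0.78 to 1.31, limma adjusted p of 0.0817 to 0.172). The difference between the stiffness effects was lost without WT stiff replicate 1, Cav1KO stiff replicate 2, WT soft replicate 1 or either Cav1KO soft library (1.85 to 2.41, limma adjusted p of 0.0728 to 0.137). The direction held in each of these fits. With all libraries kept, the stiffness call in WT (DESeq2 adjusted p = 0.101, edgeR 0.0507) and the genotype call on stiff (DESeq2 0.114, edgeR 0.0546) were lost. The stiffness call in Cav1KO cells was lost with DESeq2 (adjusted p = 0.0607). It was also lost with the trend of transcript length and GC content removed from each library (-0.80, limma adjusted p = 0.0511). Under that correction the difference between the stiffness effects was 1.89 (limma adjusted p = 0.0297). Without both WT soft replicate 1 and Cav1KO stiff replicate 2 it was 1.33 (limma adjusted p = 0.0966). Over all genes, the median of this difference was 0.44 among the longest 10% of transcripts and -0.07 over all lengths, and the part of transcript length in the Myh9 result was not tested further.

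Myh10 (ENSMUSG00000020900, chromosome 11 from 68691559 to 68816632) was at 70.8 and 43.5 CPM on the stiff and 19.0 and 35.9 CPM on the soft substrate in WT cells, and at 71.1 and 28.7 CPM on stiff and 85.7 and 85.3 CPM on soft in Cav1KO cells. Both Cav1KO soft libraries were above the 6 others. The Cav1KO mean on the soft substrate was 3.11 times the WT mean (log2 fold change 1.67 with SE 0.42, limma adjusted p = 0.00945), a call that was lost without WT soft replicate 1 (1.23, limma adjusted p = 0.0820). Its stiffness effects took the same signs as those of Myh9 but did not pass the threshold, with 1.06 in WT (limma adjusted p = 0.0664) and -0.90 without caveolin-1 (limma adjusted p = 0.0976). They were 0.62 in WT without WT soft replicate 1 and -0.26 in Cav1KO cells without Cav1KO stiff replicate 2. Per kilobase of transcript, Myh9 made up 88.4% to 89.5% of the heavy chain transcripts of the 2 genes in the WT libraries and 81.4% to 85.9% in the Cav1KO libraries, with Myh10 making up the rest. The share of Myh10 was thus higher in every Cav1KO library than in every WT library. The heavy chain of myosin IIC, Myh14, and the smooth muscle heavy chain, Myh11, had no row in the listing and could not be tested.

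Myl6 encodes the essential light chain, which stiffens the lever arm of the head and carries no regulatory phosphorylation. It (ENSMUSG00000090841, chromosome 10 from 128490860 to 128494145) was at 482 and 559 CPM on stiff and at 593 and 570.2 CPM on soft in WT cells, and at 383 and 422 CPM on stiff and 361 and 381 CPM on soft in Cav1KO cells. All 4 WT libraries were above all 4 Cav1KO libraries. In Cav1KO cells Myl6 was lower on the stiff substrate (log2 fold change -0.37 with SE 0.09, limma adjusted p = 0.00883) and on the soft (-0.65 with SE 0.09, limma adjusted p = 0.000418). The former call was lost without WT stiff replicate 2 (-0.26, limma adjusted p = 0.0573). Its stiffness effects were -0.16 in WT and 0.11 in Cav1KO cells and did not pass the threshold. Of the 60-base windows of its transcript, 47.4% also occur in other annotated genes, mostly the processed pseudogenes Gm5526, Gm10080 and Gm8894, so its values are uncertain to the extent that reads were shared among these copies.

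Among the regulatory light chains, Myl9 showed the largest genotype difference of the 10 genes. Myl9 (ENSMUSG00000067818, chromosome 2 from 156775420 to 156781658) encodes the form abundant in smooth muscle and in contractile fibroblasts. It was at 29.2 and 32.1 CPM in WT cells on stiff and at 25.6 and 35.1 CPM on soft. In the Cav1KO libraries it was at 1.18 and 0.986 CPM on the stiff and at 1.62 and 1.85 CPM on the soft substrate, 18 to 36 reads. The groups were far apart, and every WT library was above every Cav1KO library. The WT mean was 28.3 times the Cav1KO mean on the stiff substrate (30.7 ± 2.03 against 1.08 ± 0.135 CPM, SD, n = 2) and 17.5 times on the soft (30.4 ± 6.70 against 1.74 ± 0.163 CPM). Log2(CPM + 1), on which changes at low values appear smaller, gave -3.93 (SE 0.17, limma adjusted p = 4.11e-07) and -3.50 (SE 0.17, limma adjusted p = 7.37e-07). Stiffness left no detectable difference in WT cells (0.03, 95% confidence interval -0.35 to 0.41, limma adjusted p = 0.901), and the lower level on the stiff substrate in Cav1KO cells missed the threshold (-0.39, limma adjusted p = 0.0724). None of its 60-base windows occurs in another annotated gene. Of the smooth muscle markers, Cnn1, Smtn and Actg2 were lower in every Cav1KO library than in every WT library, as Myl9 was. The 4 of 5 with a row summed to 64.9 to 99.3 CPM in the WT and to 21.4 to 36.7 CPM in the Cav1KO libraries, and their part in the result was not tested. Most of that sum was Smtn, and Myh11 had no row. Lmod1 went the other way, at 0 to 0.161 CPM in the WT and 0.110 to 1.34 CPM in the Cav1KO libraries. In bulk RNA, fewer cells of a type and less RNA per cell cannot be told apart.

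The region before the start of Myl9 is shown because this gene carried the strongest difference. Of the 250 bases that RefSeq places before the start on GRCm38.p6, the first 206 (chr2:156775214-156775419, plus strand) lie outside annotated exons.
Myl9: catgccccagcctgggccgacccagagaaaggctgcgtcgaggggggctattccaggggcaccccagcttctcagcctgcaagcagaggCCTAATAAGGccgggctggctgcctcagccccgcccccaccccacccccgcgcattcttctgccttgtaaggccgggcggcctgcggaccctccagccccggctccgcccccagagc
Capitals mark a CArG box, the motif bound by serum response factor, at position -161 from the start. Such a box, searched on both strands, was present in 1.47% of the 32851 windows of that length, and among the 9 of the 10 genes with a window it was found in those of Myl9 and Myl6. A match is a description of the sequence, and binding was not measured.

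Myl12b, a ubiquitous regulatory light chain, also fell in Cav1KO cells. Myl12b (ENSMUSG00000034868, chromosome 17 from 70973133 to 70990890) was at 53.1 and 54.4 CPM on the stiff and 79.0 and 76.9 CPM on the soft substrate in WT cells, and at 7.24 and 7.67 CPM on stiff and 17.4 and 16.3 CPM on soft in Cav1KO cells. The 4 groups did not overlap, and within each group the libraries lay close together. The WT mean was 7.21 times the Cav1KO mean on the stiff substrate (log2 fold change -2.70 with SE 0.09, limma adjusted p = 9.70e-08) and 4.63 times on the soft (-2.15 with SE 0.09, limma adjusted p = 3.51e-07). Myl12b was the 1 gene of the 10 called lower on the stiff substrate in both genotypes. It fell by 0.53 on the log2 scale in WT (limma adjusted p = 0.00163) and by 1.08 without caveolin-1 (limma adjusted p = 3.54e-05). The difference between these effects was 0.55 (limma adjusted p = 0.0373), and this call, unlike the others of Myl12b, was lost when any of 7 of the 8 libraries was left out (0.51 to 0.59, limma adjusted p of 0.0599 to 0.155), with Cav1KO stiff replicate 1 the exception.

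Myl12a, the neighbouring gene and the third regulatory light chain, changed little by comparison. Myl12a (ENSMUSG00000024048, chromosome 17 from 70993656 to 71002878) was at 593 and 614 CPM on the stiff and 528 and 545 CPM on the soft substrate in WT cells, and at 541 and 537 CPM on stiff and 417 and 425 CPM on soft in Cav1KO cells. The Cav1KO soft libraries were below the others. Myl12a was lower in Cav1KO than in WT cells on the soft substrate (log2 fold change -0.35 with SE 0.06, limma adjusted p = 0.00196) and was not called on the stiff (-0.16, 95% confidence interval -0.31 to -0.01, limma adjusted p = 0.0639). In Cav1KO cells it rose on the stiff substrate (0.36 with SE 0.06, limma adjusted p = 0.00177), and in WT cells its effect of 0.17 missed the threshold (limma adjusted p = 0.0597). Myl12a and Myl12b shared 7.03% of the 60-base windows of the Myl12a transcript and 6.33% of those of Myl12b, and a read-through transcript of both genes, which has no row, covered 28.3% and 32.7%. The counting could have moved reads between the 2 genes to that extent. The level of Myl12b in the Cav1KO libraries, 7.24 to 17.4 CPM, stood beside 417 to 541 CPM of Myl12a.

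Taken per kilobase, Myl12a supplied most of the regulatory light chain transcript in every library, and its share was higher in Cav1KO cells. With the transcripts used here (1937 bases for Myl12a, 2143 for Myl12b and 1128 for Myl9), Myl12a made up 80.8% to 85.8% of the transcripts of the 3 genes in the WT and 95.8% to 98.4% in the Cav1KO libraries. Myl9 made up 6.83% to 8.93% in the WT and 0.311% to 0.718% in the Cav1KO libraries. Myl12b made up 6.85% to 11.1% and 1.19% to 3.61%. The summed level of the 3 genes ranged from 332 to 371 CPM per kilobase in WT, from 282 to 284 in Cav1KO stiff and from 225 to 229 in Cav1KO soft libraries. Annotated transcripts that hold the whole coding sequence are as short as 804 bases for Myl12a and 1001 for Myl12b, and with these lengths the share of Myl12a was 86.3% to 90.3% in the WT and 96.5% to 98.8% in the Cav1KO libraries. The direction was the same with both choices of length.

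**Figure D2:**
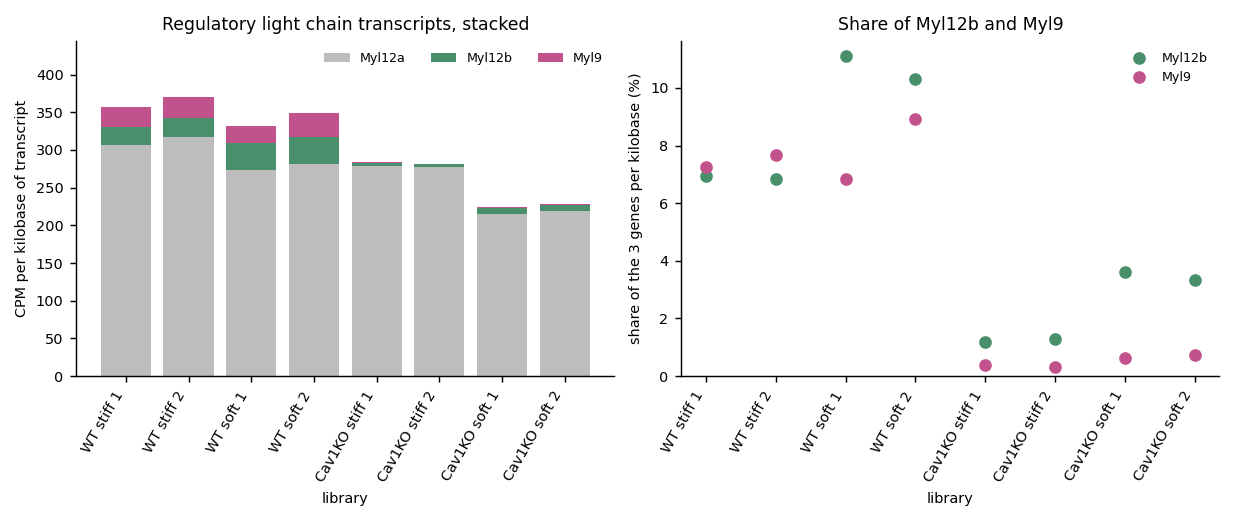
Left, bars stack the CPM per kilobase of transcript of Myl12a, Myl12b and Myl9 in each of the 8 libraries. Right, points give the shares of Myl12b and Myl9 among the 3 genes in percent, which fall from between 6.83% and 11.1% in the WT libraries to 3.61% or less in the Cav1KO libraries.

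Mylk, the calcium- and calmodulin-dependent kinase of the regulatory light chain, differed between the genotypes in the direction opposite to Myl9 and Myl12b. Mylk (ENSMUSG00000022836, chromosome 16 from 34745210 to 35002420) was at 0.402 and 0.399 CPM in WT stiff libraries, 8 and 7 reads, and at 1.15 and 0.537 CPM in WT soft libraries, 19 and 10 reads. In Cav1KO cells it was at 3.71 and 3.34 CPM on the stiff substrate, 63 and 61 reads, and at 13.9 and 11.8 CPM on the soft, 265 and 230 reads. Every Cav1KO library was above every WT library, and within each genotype both soft libraries were above both stiff ones. The Cav1KO mean was 8.80 times the WT mean on the stiff (log2 fold change 1.69 with SE 0.19, limma adjusted p = 0.000113) and 15.2 times on the soft substrate (2.93 with SE 0.19, limma adjusted p = 4.15e-06). In Cav1KO cells Mylk was lower on the stiff substrate (-1.61 with SE 0.19, limma adjusted p = 0.000160), whereas in WT cells the effect of -0.38 missed the threshold (limma adjusted p = 0.126).

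The difference between the stiffness effects of Mylk, 1.23 (limma adjusted p = 0.0306), depended on the scale, with WT levels near the pseudocount of 1 CPM. On the recovered reads edgeR gave an adjusted p of 0.296 and DESeq2 one of 0.431 for this difference. It was also lost without WT stiff replicate 1, Cav1KO stiff replicate 2, WT soft replicate 2 or either Cav1KO soft library (0.99 to 1.34, limma adjusted p of 0.0606 to 0.135). The ratios of means, 2.10 times more on soft in WT and 3.64 times more in Cav1KO cells, lie nearer to each other than the values on the log2(CPM + 1) scale. The genes E130310I04Rik and Gm21691 on the opposite strand overlap 4.87% and 1.99% of its exon bases, and whether the counting used strand was not given in the sources used here.

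The region before the start of Mylk that RefSeq gives on GRCm38.p6 is shown as the counterpart of that of Myl9, since both genes differed strongly between the genotypes in opposite directions. Its first 221 bases (chr16:34784700-34784920, plus strand) lie outside annotated exons and, unlike those of Myl9, inside the bounds of the gene, which has an earlier annotated start.
Mylk: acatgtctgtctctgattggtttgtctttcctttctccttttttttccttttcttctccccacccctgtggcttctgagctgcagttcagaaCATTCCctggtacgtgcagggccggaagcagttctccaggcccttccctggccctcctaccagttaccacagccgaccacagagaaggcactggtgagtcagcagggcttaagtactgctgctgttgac
Capitals mark a match to GGAATG, the motif of TEAD factors, read on the opposite strand at position -158 from the start. The motif, on either strand, was present in 12.6% of the 32851 windows of 250 bases, and no CArG box was found in this one. Among the genes of the set with a window, the TEAD motif was also found in that of Myh10, at position -7.

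Rock1 and Rock2, which encode the ROCK kinases, were expressed at a few CPM, and the spread between libraries was large. Rock1 (ENSMUSG00000024290, chromosome 18 from 10064401 to 10182045) was at 10.7 and 7.41 CPM on the stiff and 4.83 and 6.66 CPM on the soft substrate in WT cells, and at 6.65 and 3.45 CPM on stiff and 10.2 and 9.36 CPM on soft in Cav1KO cells. Its pattern followed that of Myh9, with stiff above soft in WT cells and below it in Cav1KO cells, and no overlap in either genotype. Rock1 was lower on the stiff substrate in Cav1KO cells (log2 fold change -0.89 with SE 0.27, limma adjusted p = 0.0217) and lower in Cav1KO than in WT cells on the stiff substrate (-0.77 with SE 0.27, limma adjusted p = 0.0417). In WT cells the effect, 0.57 (limma adjusted p = 0.113), and the genotype effect on the soft substrate, 0.69 (limma adjusted p = 0.0585), did not pass the threshold. The difference between the stiffness effects was 1.46 (SE 0.38, limma adjusted p = 0.0481).

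The Rock1 calls rested on single libraries. The stiffness call in Cav1KO cells was lost without Cav1KO stiff replicate 2 or either Cav1KO soft library (-0.95 to -0.50, limma adjusted p of 0.0666 to 0.126). The genotype call was lost without any library but WT stiff replicate 2 and Cav1KO stiff replicate 1 (-0.77 to -0.38, limma adjusted p of 0.0540 to 0.243), and without the latter library the effect was -1.16. The difference between the stiffness effects was lost without any library but WT stiff replicate 2 and Cav1KO stiff replicate 1 (1.07 to 1.66, limma adjusted p of 0.0755 to 0.165), and was 0.87 without both WT soft replicate 1 and Cav1KO stiff replicate 2 (limma adjusted p = 0.199). The sign was kept in each of these fits.

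Rock2 (ENSMUSG00000020580, chromosome 12 from 16894895 to 16987823) was at 14.0 and 9.06 CPM on the stiff and 5.50 and 7.31 CPM on the soft substrate in WT cells, and at 7.30 and 2.96 CPM on stiff and 8.21 and 7.51 CPM on soft in Cav1KO cells. The highest group mean was that of WT stiff, and the WT soft and Cav1KO stiff libraries overlapped. On the stiff substrate the WT mean was 2.25 times the Cav1KO mean (log2 fold change -1.10 with SE 0.33, limma adjusted p = 0.0219), which was lost without WT stiff replicate 1 (-0.81, limma adjusted p = 0.141) or Cav1KO stiff replicate 2 (-0.57, limma adjusted p = 0.107). Its other contrasts did not pass the threshold. Per kilobase, Rock1 made up 47.7% to 52.0% of the transcripts of the pair in the WT and 52.0% to 59.7% in the Cav1KO libraries, ranges that touch.

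Ppp1r12a encodes the subunit that directs myosin phosphatase to myosin. It (ENSMUSG00000019907, chromosome 10 from 108162193 to 108284475) was at 24.4 and 19.8 CPM on the stiff and 19.6 and 23.1 CPM on the soft substrate in WT cells, and at 23.4 and 12.8 CPM on stiff and 38.1 and 38.2 CPM on soft in Cav1KO cells. The 2 Cav1KO soft libraries were above the other 6, which overlapped. In Cav1KO cells Ppp1r12a was lower on the stiff substrate (log2 fold change -1.09 with SE 0.23, limma adjusted p = 0.00415). The effect was -0.68 without Cav1KO stiff replicate 2 and was still called. No difference was detectable in WT cells (0.04, 95% confidence interval -0.49 to 0.58, limma adjusted p = 0.900). The difference between these effects was 1.13 and missed the threshold (limma adjusted p = 0.0593), and was 0.61 without both WT soft replicate 1 and Cav1KO stiff replicate 2 (limma adjusted p = 0.180). On the soft substrate it was higher in Cav1KO than in WT cells (0.81 with SE 0.23, limma adjusted p = 0.0177), a call lost without WT soft replicate 1 or either Cav1KO soft library (0.70 to 0.81, limma adjusted p of 0.0737 to 0.107).

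Across the 10 genes, 3 were called lower in Cav1KO cells on both substrates (Myl6, Myl9 and Myl12b), Mylk was called higher on both, and Myh9 was called lower on the stiff and higher on the soft substrate. Of the 27 calls over the 5 contrasts, 13 were kept under every alternative setting and 14 were lost under at least 1, with no reversal. The kept calls were the genotype effects of Myl9, Myl12b and Mylk on both substrates, those of Myl6 and Myl12a on the soft substrate, and the stiffness effects of Myl12b in both genotypes and of Myl12a, Mylk and Ppp1r12a in Cav1KO cells. The plot of effects sets these beside the calls that depend on a library.

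**Figure D3:**
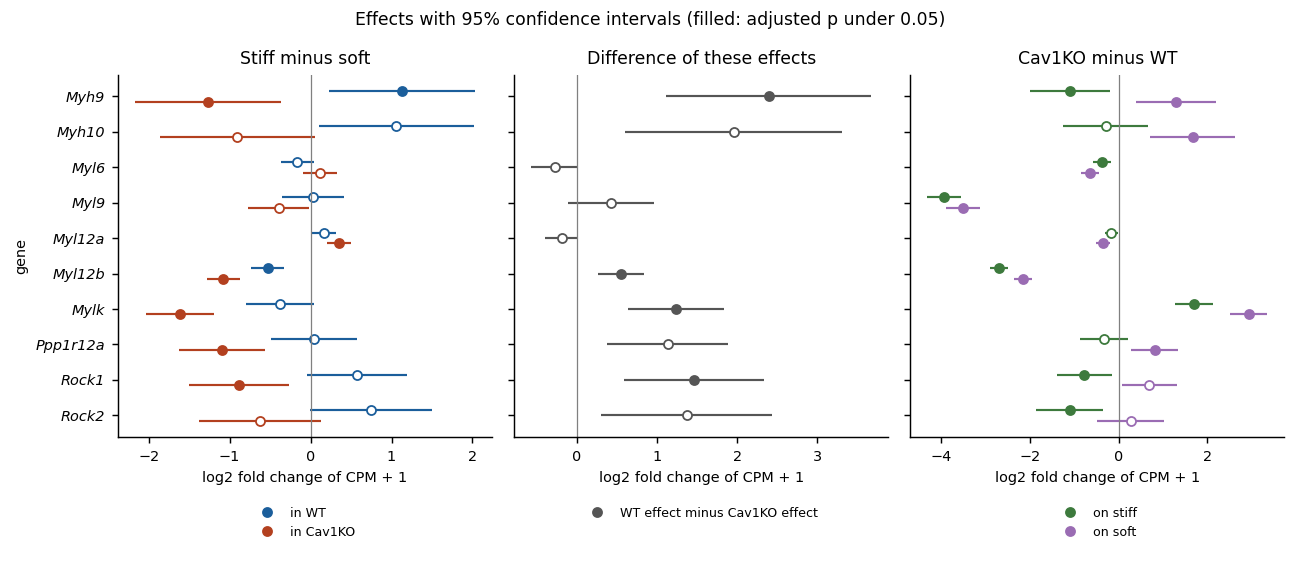
Points give the log2 fold change of CPM + 1 of each gene for stiff minus soft in each genotype (left), for the difference between these effects (middle) and for Cav1KO minus WT on each substrate (right), with 95% confidence intervals from limma; filled points have an adjusted p under 0.05. The intervals of Myl9, Myl12b and Mylk are far from 0 for genotype on both substrates, while those of Myh9, Myh10, Rock1 and Rock2 are wide.

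**Figure D4:**
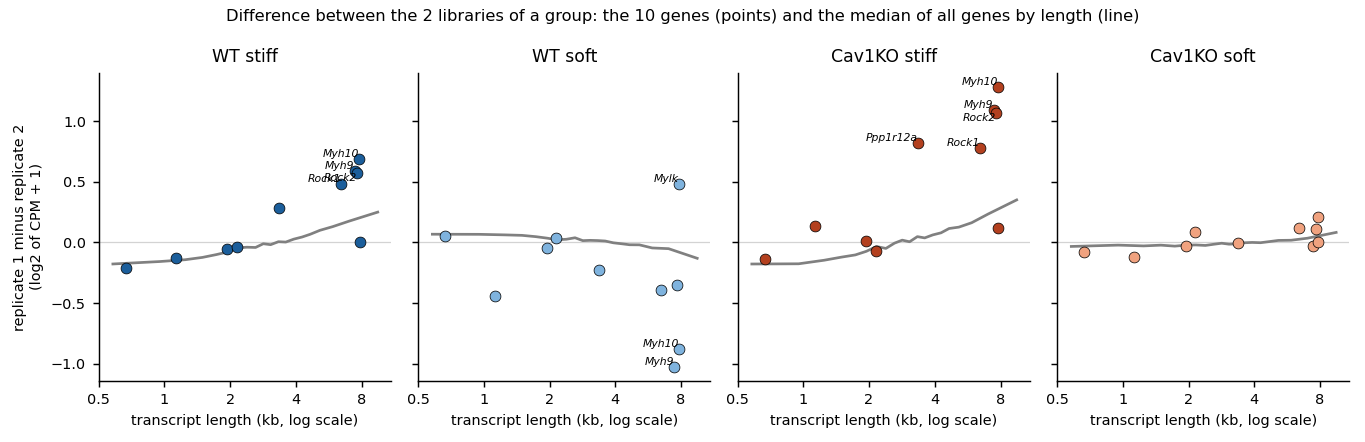
In each group, points give the log2 difference between replicates 1 and 2 of the 10 genes against transcript length in kilobases (log axis), and the line gives the median of all genes in bins of length. Myh9, Myh10, Rock1 and Rock2 lie above the line in WT stiff and Cav1KO stiff and below it in WT soft. Mylk, as long as they are, lies near 0 in WT stiff and Cav1KO stiff and at 0.48 in WT soft. It had 8 and 7 reads in WT stiff and 19 and 10 in WT soft, and differences at such low values appear smaller on this scale.

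The pathway around myosin II was described with 62 further genes in 7 lists, of which 55 were tested. Of these 55, limma called 15 higher and 10 lower with stiffness in WT cells (against 22.1% and 26.3% of all genes), and 11 higher and 22 lower in Cav1KO cells (against 27.9% and 28.2%). In Cav1KO against WT cells, 10 were higher and 20 lower on the stiff (against 25% and 26.6%) and 13 were higher and 17 lower on the soft substrate (against 24.1% and 29.9%). The counts describe the lists and were not tested against those shares. The median log2 fold change of the 55 genes for genotype was -0.21 on the stiff and -0.10 on the soft substrate, beside -0.03 in both for all genes.

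Ppp1r14b, Ppp1r12b, Ppp1ca and Ppp1cc, of the myosin phosphatase list, were called for stiffness in both genotypes. Ppp1cc rose on the stiff substrate in WT (0.34, limma adjusted p = 0.0229), a call lost under at least 1 alternative setting, and in Cav1KO cells (0.61, limma adjusted p = 0.00111). Of 7 tested genes of the list, 3 were higher and 1 lower on the stiff substrate in WT cells (against 22.1% and 26.3% of all genes), and 4 were higher and 2 lower in Cav1KO cells (against 27.9% and 28.2%). In Cav1KO against WT cells, 5 were higher and none lower on the stiff substrate (against 25% and 26.6%), and 1 was higher and 2 lower on the soft (against 24.1% and 29.9%). Ppp1r14b, an inhibitor of the phosphatase, was at 464 and 519 CPM on stiff against 274 and 288 CPM on soft in WT cells, and at 577 and 688 CPM on stiff against 203 and 220.1 CPM on soft in Cav1KO cells (0.80, limma adjusted p = 0.000357, and 1.57, limma adjusted p = 1.46e-05). Ppp1r12b, a second targeting subunit, went the other way (-1.27, limma adjusted p = 6.43e-05, in WT and -0.66, limma adjusted p = 0.000717, in Cav1KO cells). Ppp1ca, a catalytic subunit, rose on the stiff substrate in WT (0.34, limma adjusted p = 0.0342), a call lost under at least 1 alternative setting. It also rose in Cav1KO cells (0.80, limma adjusted p = 0.000459), which held under every alternative. The beta catalytic subunit found in myosin phosphatase, Ppp1cb, was called for genotype on the stiff substrate (0.28, limma adjusted p = 0.0342) and for neither stiffness effect. That genotype call was lost under at least 1 alternative setting.

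Among other kinases that act on the light chain or are regulated in the same pathway, 10 of 12 genes were tested, and 1 was higher and 4 lower in Cav1KO cells on the stiff substrate (against 25% and 26.6% of all genes), 3 and 2 on the soft (against 24.1% and 29.9%). Pak1, an effector of Rac and Cdc42, was at 26.1 to 36.5 CPM in the WT and at 9.37 to 11.6 CPM in the Cav1KO libraries (-1.66, limma adjusted p = 1.34e-05, and -1.31, limma adjusted p = 5.28e-05). Cit, the citron kinase of cytokinesis, had a difference between its stiffness effects of 1.55 (limma adjusted p = 0.0453, up to 0.158 over the alternatives). Cdc42bpa, a kinase related to ROCK, was lower in Cav1KO cells on the stiff substrate (-1.21, limma adjusted p = 0.0126, up to 0.0933 over the alternatives). Pak1 was thus the 1 of these 3 whose genotype calls held under every alternative.

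Among the 55 genes, partners of the myosin filament held the largest log2 fold changes for genotype. Of 13 tested genes, 1 was higher and 6 were lower in Cav1KO cells on the stiff substrate (against 25% and 26.6% of all genes), and 3 were higher and 6 lower on the soft (against 24.1% and 29.9%). S100a4, which binds the tail of the Myh9 heavy chain and takes filaments apart, was at 393 to 864 CPM in the WT and at 80.2 to 231 CPM in the Cav1KO libraries (-2.22, limma adjusted p = 1.73e-06, and -1.88, limma adjusted p = 4.15e-06). It was also lower on the stiff substrate in both genotypes (-0.98, limma adjusted p = 0.000312, in WT and -1.31, limma adjusted p = 5.21e-05, in Cav1KO cells). Shroom3, which recruits ROCK to actin, was at 2.41 to 3.87 CPM in the WT and at 13.9 to 18.5 CPM in the Cav1KO libraries (2.17, limma adjusted p = 1.53e-05, and 2.20, limma adjusted p = 1.35e-05). Svil, a membrane linker of actin and myosin II, was lower on the stiff substrate in Cav1KO cells (-1.39, limma adjusted p = 0.00228). Myl6b, a second essential light chain gene and the 1 tested gene of the list of other myosin II chains, was at 3.18 to 6.22 CPM over all libraries. It was lower on the stiff substrate in Cav1KO cells (-0.62, limma adjusted p = 0.00605), a call lost under at least 1 alternative setting.

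**Figure D5:**
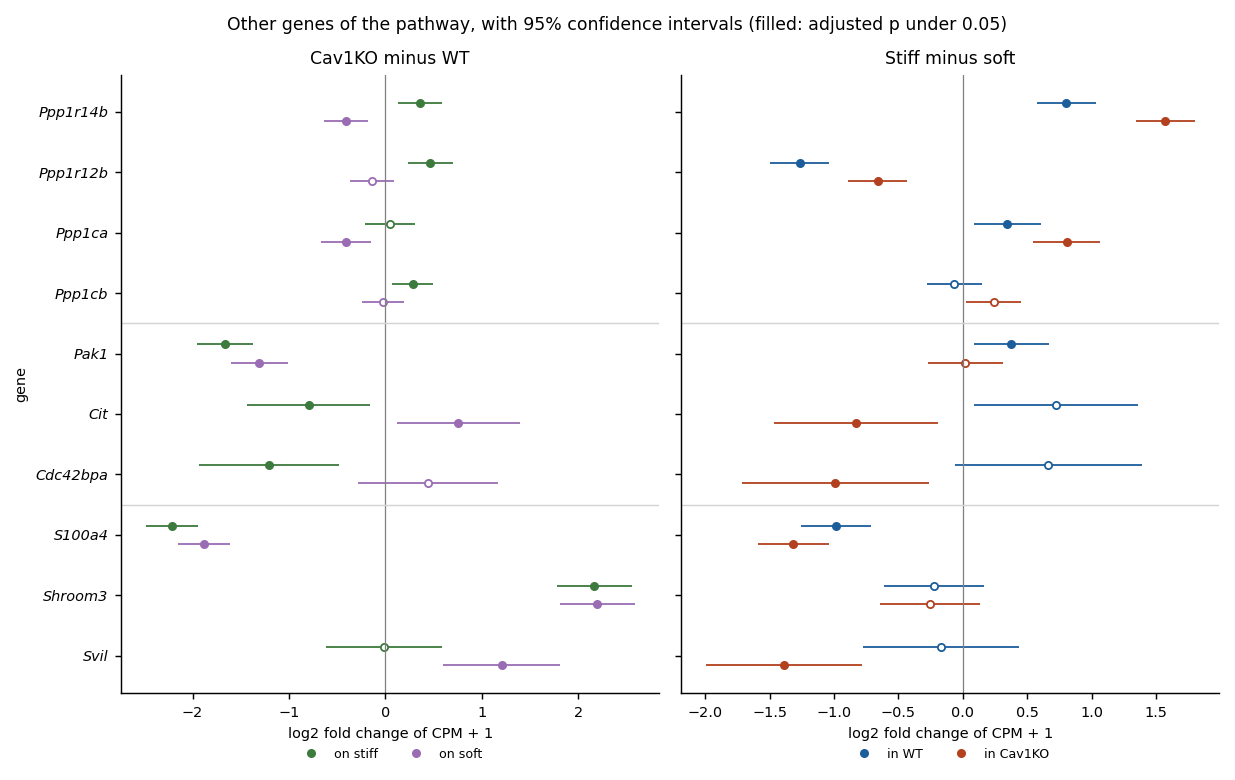
Points give the log2 fold change of CPM + 1 of the named pathway genes, without Ppp1cc and Myl6b, for Cav1KO minus WT (left) and stiff minus soft (right). Bars are 95% confidence intervals, and horizontal lines separate the lists (from the top: phosphatase, kinases, filament partners). Filled points have an adjusted p under 0.05; Pak1 and S100a4 lie left and Shroom3 lies right of 0 for genotype on both substrates.

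Among the genes whose levels followed Myh9 most closely over the 8 libraries, of 10063 genes with a mean of at least 5 CPM, were Spen, Plec, Mki67 and Wiz (Pearson's r of log2(CPM + 1) from 0.984 to 0.991). Their transcripts have 5058 to 15439 bases and lie between the 81.7 and the 99.7 percentile of length. The genes closest to Myl9 were Tnpo2, Fbn2, Col2a1, Hoxa10 and S100a11 (r from 0.997 to 0.998), and these range from 511 bases for S100a11 to 11041 for Fbn2. The points behind each r are 8 libraries of 4 groups, which share their groups, so these values describe likeness over this design.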

How the data were processed

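RNA from 8 libraries (500 ng each, poly(A) selection, single reads of 60 bases) had been sequenced by the authors. The submitters' processing notes name CASAVA 1.8.2, cutadapt, RSEM 1.2.3 and the build GRCm38, without their roles. The deposited values, a normalized signal, are CPM that the authors scaled by TMM. Every value (100%, tolerance 0.01 reads) was a whole multiple of what 1 read is worth, so whole reads were recovered. Every column was mapped to a sample from the labels.

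From these values, log2(CPM + 1) was fitted with limma 3.58.1 (R 4.3.3, two-sided, with a mean-variance trend) over the 12494 of 12528 genes that reached 1 CPM in 2 or more libraries. The 4 groups entered 1 fit with 4 residual degrees of freedom, and p-values were adjusted by Benjamini-Hochberg over all genes. The script was tested on simulated data. Alternatives were 22 settings, among them edgeR 4.0.16 and DESeq2 1.42.0 on the recovered reads, other pseudocounts, filters and scalings, a length and GC correction, a replicate block and each library left out. Lengths and positions came from GENCODE M21, which matched 12451 genes (99.4%), and promoters from RefSeq GRCm38.p6.

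The members and lists were chosen with earlier results of these data known. Besides the members, the text names up to 3 genes per list with the largest called change and a mean of at least 5 CPM, Ppp1cb and Myh14, and the 5 genes most like Myh9 and Myl9. Of the 5 most like Myh9, 1 is not reported here, nor are 3 of the 7 lists one by one. Myl6b and Ppp1cc, outside that rule, were named after their values were seen. Myl6b was the 1 tested gene of its list, and Ppp1cc was called for stiffness in both genotypes.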

Additional observations from a re-analysis of the deposited data

Results flagged for a closer look

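The stiffness effect differed between WT and Cav1KO cells for 4 of the 10 genes by the interaction test in limma. The difference, WT effect minus Cav1KO effect on the log2 scale, was 2.39 for Myh9 (adjusted p = 0.0381), 0.55 for Myl12b (adjusted p = 0.0373), 1.23 for Mylk (adjusted p = 0.0306) and 1.46 for Rock1 (adjusted p = 0.0481). Each of the 4 lost its call when 1 of several libraries was left out. Myh9 was the 1 gene called in opposite directions in the 2 genotypes.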

How the results depend on the processing

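Of the 27 calls among the 10 genes, 13 held in all settings run and 14 were lost in at least 1, none with a change of sign. The number of the 10 genes called higher on stiff in WT cells, 1 in the report, was 0 with no trend, with edgeR and with the replicate block, 2 with quantile normalization, 3 with median centring, with the length and GC correction and with that correction and the block, and 0 to 4 with 1 library left out. The number called lower there, 1, was 2 with quantile normalization and with the length and GC correction, and 1 to 2 with 1 library left out. For the difference between stiffness effects, 4 were called higher, but 2 with a pseudocount of 0.5, with no trend and with edgeR, and 0 to 7 with 1 library left out. For genotype on stiff, 6 were lower, but 3 with only the 2 groups in the fit, and 3 to 7 with 1 library left out. With 1 library left out, 3 to 7 genes were lower for stiffness in Cav1KO cells and 1 to 5 higher for genotype on soft. WT soft replicate 1 and Cav1KO stiff replicate 2 were also left out together, a choice made after seeing the data that kept WT stiff replicate 2. The difference between stiffness effects was then smaller for Myh9 (1.33) and Rock1 (0.87) and larger for Myl12b (0.60) and Mylk (1.42) than with all libraries.

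Some effects that were not called changed sign. Myh10 for genotype on stiff ranged from -0.93 to 0.35 with 1 library left out, and was 0.06 without WT stiff replicate 1 and 0.35 without Cav1KO stiff replicate 2 or without both doubted libraries. Myl6 for stiffness in Cav1KO was -0.041 with quantile normalization and -0.13 with the length and GC correction, with or without the block. Myl9 for stiffness in WT ranged from -0.19 to 0.25, and was -0.04 without WT stiff replicate 2 and -0.19 without WT soft replicate 1 or both doubted libraries. Ppp1r12a for stiffness in WT ranged from -0.10 to 0.19, and was -0.10 without WT stiff replicate 1 and -0.071 without WT soft replicate 1 or both doubted libraries, and for genotype on stiff it ranged from -0.73 to 0.086, and was 0.086 without Cav1KO stiff replicate 2 or both. The cause was not tested.

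The replicate numbers were not taken as pairs, since the correlation of same-numbered deviations was above 0.1 for 2 of 6 pairs of groups (WT stiff with Cav1KO stiff, 0.415, and with Cav1KO soft, 0.140) and ranged down to -0.367 (WT stiff with WT soft). The replicate block left 0 of the 10 genes called higher for stiffness in WT and lost 2 of the 27 calls, both of Myh9 (limma adjusted p = 0.0586 for stiffness in WT and 0.0604 for genotype on stiff). For stiffness in WT, limma called 3997 genes with the numbers as given and 6872 with the pairing crossed, which was chosen after seeing the data. For genotype on stiff it called 8062 as given and 4546 crossed, for stiffness in Cav1KO 6111 and 5301, and for genotype on soft 7276 and 7681. These counts of the pairing are not those of the replicate block fit above. The block fit called 2767 genes higher and 3213 lower for stiffness in WT, and 3117 higher and 3328 lower for genotype on stiff. Mylk in WT cells rested on 7 to 19 reads per library.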
